A study of Homo sapiens with 10 samples.

Results

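The genes of B cell receptor signalling described here are 38 named genes, from the receptor's CD79 chains to the NFAT factors, taken from the tables by symbol. The set was drawn up with earlier results of these data known. All 38 were found among the 25275 gene symbols of the 2 expression tables. The series holds 10 samples of 2 established human lymphoma lines, TMD8 and OCI-LY10, both from diffuse large B-cell lymphoma of the activated B-cell-like type, of which 6 were used for RNA-seq and 4 for STAT3 ChIP-seq, which is not analysed here. Every RNA-seq culture carried a doxycycline-inducible short hairpin RNA (shRNA) switched on by doxycycline (20 ng/ml, given over 2 days), the control included. Each line has 3 RNA-seq libraries, for a control shRNA and for the STAT3 shRNAs numbered 10 and 16, so the comparison asks how these genes stand after depletion of the transcription factor STAT3. Values are FPKM, read fragments scaled to gene length and to library size. Small RNA genes took 49.2% of the summed FPKM in the library labelled control and 57.9% and 58.3% with shRNAs 10 and 16 in OCI-LY10. Their share was 22.8% to 43.4% in the TMD8 columns. Leaving those genes out of the fit did not rescale the FPKM values, so the log2 changes stayed the same. That setting cannot show the part of the small RNA share in the results, which was not tested directly. The OCI-LY10 columns are named, while the TMD8 table has no header line. Its columns are given as columns 1, 2 and 3 by position, and none is tied to a shRNA.

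The B cell receptor is a membrane immunoglobulin that signals through the paired chains CD79A and CD79B. Src-family kinases phosphorylate these chains, the kinase SYK docks on them, and adaptors then gather BTK and phospholipase C gamma 2 at the membrane. The lipase opens calcium stores and activates protein kinase C beta, which leads through BCL10 and MALT1 to NF-kB, and calcium leads to NFAT. Phosphatases and ubiquitin ligases dampen the cascade. Lymphomas of the activated B-cell-like type are known for chronically active signalling along this route.

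The library labelled OCI-LY10 control shRNA stood apart from the other OCI-LY10 libraries and close to the TMD8 columns. Taken over 10999 genes, small RNA genes left out, Pearson's r on the log2(FPKM + 1) scale was 0.845 between it and each STAT3 shRNA library of OCI-LY10, and 0.937, 0.941 and 0.962 between it and TMD8 columns 1, 2 and 3. The STAT3 shRNA libraries correlated with each other at 0.994 and with the TMD8 columns at 0.798 to 0.816. These are descriptions across genes, which are not independent replicates and share a library, and the tables were deposited separately with no stated scaling between them. STAT3 itself stood at 16.5 FPKM in the library labelled control, 11.1 with shRNA 10 and 10.6 with shRNA 16, and at 120.3, 24.3 and 22.5 FPKM in TMD8 columns 1, 2 and 3. In OCI-LY10 the log2 change of STAT3 was −0.56 (SE 0.10, limma adjusted p = 0.0465). The OCI-LY10 comparison is therefore one of libraries as labelled: an effect of STAT3 depletion and any other difference between these libraries cannot be told apart. Whether the label of the control is right was not tested, and each difference between STAT3 shRNA and control below carries that limit. Without the library labelled control no comparison remains in this line. All 9 B cell markers examined were above 1 FPKM in all 6 libraries. Markers of T cells, myeloid cells and erythroid cells were all below 1 FPKM in every library, and of the NK cell markers only NCR1, at 1.55 FPKM with shRNA 16, was above it. Summed over its list, the level was 0.312 to 1.28 FPKM for 9 T cell markers, 0.151 to 2.53 for 5 NK cell markers, 0.690 to 1.60 for 8 myeloid markers and at most 0.135 for 4 erythroid markers. CD3D, CD2, MPO and ELANE, which define T and myeloid cells, were listed at 0 in all 6. The 9 B cell markers, which include CD79A, CD79B and BLK, summed to 937 FPKM in the library labelled control. They summed to 2529 and 2809 with shRNAs 10 and 16 and to 912 to 1076 in TMD8. CD79A and CD79B alone made up 554 FPKM of the sum in the library labelled control and 1859 and 2110 with the shRNAs. CD22 was lower with the shRNAs, at 62.1 FPKM against 23.0 and 29.3, as was EBF1, at 21.5 against 13.7 and 14.5. The other markers of that list were higher with both. The 5 measured plasma cell markers of 6 listed summed to 67 FPKM in the library labelled control, 153 and 143 with the shRNAs and 117 to 137 in TMD8. Within that list SDC1 and PRDM1 were below 1 FPKM only with the shRNAs, while TNFRSF17 stood at 1.57 FPKM in the library labelled control against 39.8 and 35.0, and XBP1 at 20.7 against 77.5 and 67.4. The part of these shifts in the results was not tested.

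The receptor genes themselves showed the same placing. For 29 of the 38 (76.3%), the library labelled control was nearer on the log2(FPKM + 1) scale to the TMD8 median than to the mean of the OCI-LY10 STAT3 shRNA libraries, against 59.5% of all genes that averaged 1 FPKM or more over the 6 columns. It lay within 2-fold of the TMD8 median for 35 of the 38, where the share over all genes was 89.4%. The STAT3 shRNA libraries lay within 2-fold of that median for 17 of the 38, against 68.2% of all genes. The median distance from the TMD8 median was 0.32 on the log2 scale for the library labelled control and 1.08 for the STAT3 shRNA libraries, against 0.34 and 0.62 over all genes. No test was run across the tables.

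**Figure D1:**
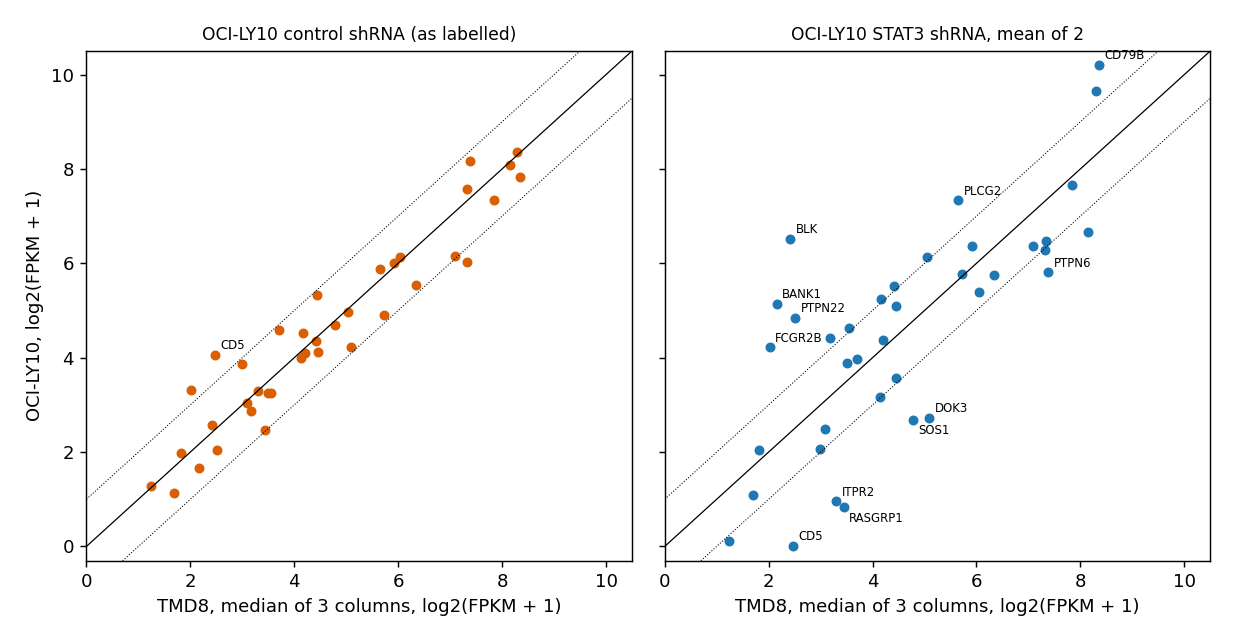
Levels of the 38 genes in OCI-LY10 plotted against the median of the 3 TMD8 columns, both as log2(FPKM + 1), for the library labelled control (left) and for the mean of the 2 STAT3 shRNA libraries (right). The solid line marks equal levels and the dotted lines a 2-fold difference; 35 of 38 genes lie within 2-fold on the left and 17 on the right.

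Between STAT3 shRNA and the library labelled control in OCI-LY10, 14 of the 37 tested genes were higher and 11 lower (limma on log2(FPKM + 1), Benjamini-Hochberg adjusted over all 11162 genes tested, threshold 0.05), while 12 did not pass. Of the 11162 genes, 20.3% were higher and 17.4% lower, so 37.7% passed in either direction. When low genes were kept in the fit, 8 of the 38 were higher and 8 lower, and CD79A, FCGR2B, FYN, LAT2, DOK3, RASGRP3, NFATC1, NFATC2, BCL10 and PTPN6 no longer passed, with adjusted p from 0.0527 to 0.108. The median log2 change of the 37 was 0.23, against 0.06 over all tested genes, and the median absolute change was 1.10 against 0.49. VAV3 was not tested, being under the filter of a mean of 1 FPKM. CD5, RASGRP1 and ITPR2 passed that filter only through the library labelled control, with a mean under 1 FPKM with the STAT3 shRNAs, so their place among the calls follows partly from the filter. With 1 control library, the p-values rest on the spread between shRNA 10 and shRNA 16 alone, which may be technical, and the labels do not say whether any library is a separate culture. In bulk RNA, fewer cells expressing a gene and less RNA per cell cannot be told apart.

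**Figure D2:**
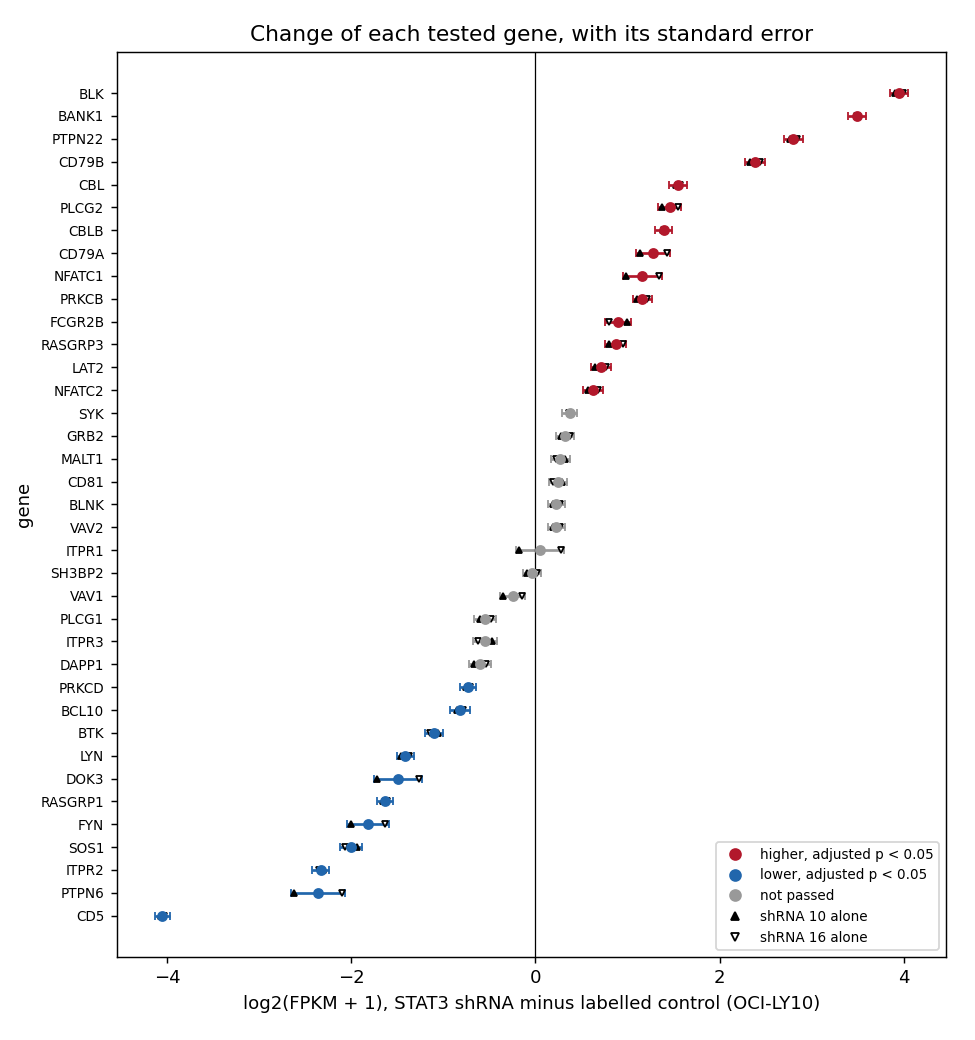
Log2 change of each of the 37 tested genes between the 2 OCI-LY10 STAT3 shRNA libraries and the library labelled control, on the log2(FPKM + 1) scale; circles are fitted changes, bars their standard errors from limma, and small triangles the ratio of each shRNA library alone to the control. BLK, at 3.95, and BANK1, at 3.49, are the highest and CD5 is the lowest.

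Promoter sequences of 30 of the 38 genes, 55 start sites in all, were searched for 3 motifs in the 250 bases before the start (RefSeq, GRCh38.p14, both strands). TTCNNNGAA, the core of sites that STAT factors bind, was found in 2 of the 55 and in 6.57% of all 35116 promoters of that length. ATGCAAAT, the octamer bound by OCT factors of B cells, was found in 2 of the 55 and in 1.63% of all. The palindrome bound by the B-cell factor EBF1 was found in 1 of the 55 and in 1.06% of all. The matches did not overlap each other. The promoters below are shown because they hold a match and belong to genes that passed the test, 2 higher (FCGR2B, PRKCB) and 2 lower (RASGRP1, PTPN6), with the matched letters in capitals. A match is a string of letters and no measure of binding. A gene can have several of the 55 start sites, and which start these cells use was not tested. The windows are chr1:161662893-161663142 (plus strand) for FCGR2B, chr15:38564815-38565064 (minus strand) for RASGRP1, chr16:23835733-23835982 (plus strand) for PRKCB and chr12:6946327-6946576 (plus strand) for PTPN6, each written 5′ to 3′ toward the start.
FCGR2B: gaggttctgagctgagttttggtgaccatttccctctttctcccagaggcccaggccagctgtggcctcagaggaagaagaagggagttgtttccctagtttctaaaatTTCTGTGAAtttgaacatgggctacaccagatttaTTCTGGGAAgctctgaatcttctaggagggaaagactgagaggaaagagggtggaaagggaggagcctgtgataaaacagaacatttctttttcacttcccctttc
RASGRP1: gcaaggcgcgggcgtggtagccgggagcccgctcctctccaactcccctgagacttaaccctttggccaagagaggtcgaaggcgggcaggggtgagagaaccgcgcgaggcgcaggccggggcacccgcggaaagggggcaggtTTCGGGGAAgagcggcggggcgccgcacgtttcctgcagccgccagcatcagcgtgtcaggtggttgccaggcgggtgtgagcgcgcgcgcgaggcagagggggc
PRKCB: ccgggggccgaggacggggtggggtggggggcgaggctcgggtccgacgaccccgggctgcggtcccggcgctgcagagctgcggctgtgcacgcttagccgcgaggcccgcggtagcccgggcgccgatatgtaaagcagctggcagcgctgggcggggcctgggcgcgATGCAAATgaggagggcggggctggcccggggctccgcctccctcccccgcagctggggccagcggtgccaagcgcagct
PTPN6: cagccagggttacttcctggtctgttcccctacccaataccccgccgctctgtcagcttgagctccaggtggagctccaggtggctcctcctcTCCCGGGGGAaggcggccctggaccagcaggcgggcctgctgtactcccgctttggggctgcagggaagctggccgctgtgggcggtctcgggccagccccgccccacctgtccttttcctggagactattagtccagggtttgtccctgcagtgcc
In FCGR2B the STAT-type matches begin 141 and 106 bases before the start, and in RASGRP1 the match begins 105 bases before it. The octamer of PRKCB begins 80 bases before the start, and the EBF1-type palindrome of PTPN6 157 bases before it. The remaining octamer match was in ITPR3, which did not pass the test. No table entry was found for CD79B, LAT2, CD5, BLK, ITPR2, CD81, CBL and LYN.

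Both signalling chains of the receptor were higher with the STAT3 shRNAs, though the CD79A call was lost when low genes were kept (adjusted p = 0.0828). CD79A, the alpha chain, stood at 328 FPKM in the library labelled control, 720 with shRNA 10 and 884 with shRNA 16, and at 373, 305 and 313 FPKM in TMD8 columns 1, 2 and 3. Its log2 change was 1.28 (SE 0.18, adjusted p = 0.0319), and the library labelled control lay inside the TMD8 range. CD79B, the beta chain, stood at 226 FPKM in the library labelled control, 1139 with shRNA 10 and 1226 with shRNA 16, against 348, 290 and 326 in the TMD8 columns. That is a log2 change of 2.38 (SE 0.11, adjusted p = 0.00938), or 5.23-fold in FPKM. CD79B was the most abundant of the 38 genes in the STAT3 shRNA libraries, whereas CD79A led in the library labelled control. CD79B made up 61.3% and 58.1% of the summed FPKM of the 2 chains with shRNA 10 and shRNA 16, 40.8% in the library labelled control and 48.3% to 51.0% in the TMD8 columns.

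The co-receptors went different ways. CD5, a surface protein that restrains antigen receptor signalling, stood at 15.8 FPKM in the library labelled control, was listed at 0 with shRNA 10 and stood at 0.0218 with shRNA 16 (limma adjusted p = 0.00676). Its TMD8 values were 4.52, 3.60 and 7.05 FPKM, so the STAT3 shRNA libraries of OCI-LY10 were the only ones of the 6 with almost none. FCGR2B, the inhibitory Fc receptor of B cells, stood at 9.0 FPKM in the library labelled control and at 18.9 and 16.4 with shRNAs 10 and 16, a log2 change of 0.89 (SE 0.14, adjusted p = 0.0367). TMD8 columns had 3.05, 2.13 and 3.34 FPKM. FCGR2B has near-identical neighbours in its family, and how shared reads were assigned is not given in the sources used here, so its values are uncertain. CD81, a tetraspanin of the B cell surface, did not pass (64.4 FPKM against 76.4 ± 3.61, SD, n = 2; adjusted p = 0.158).

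**Figure D3:**
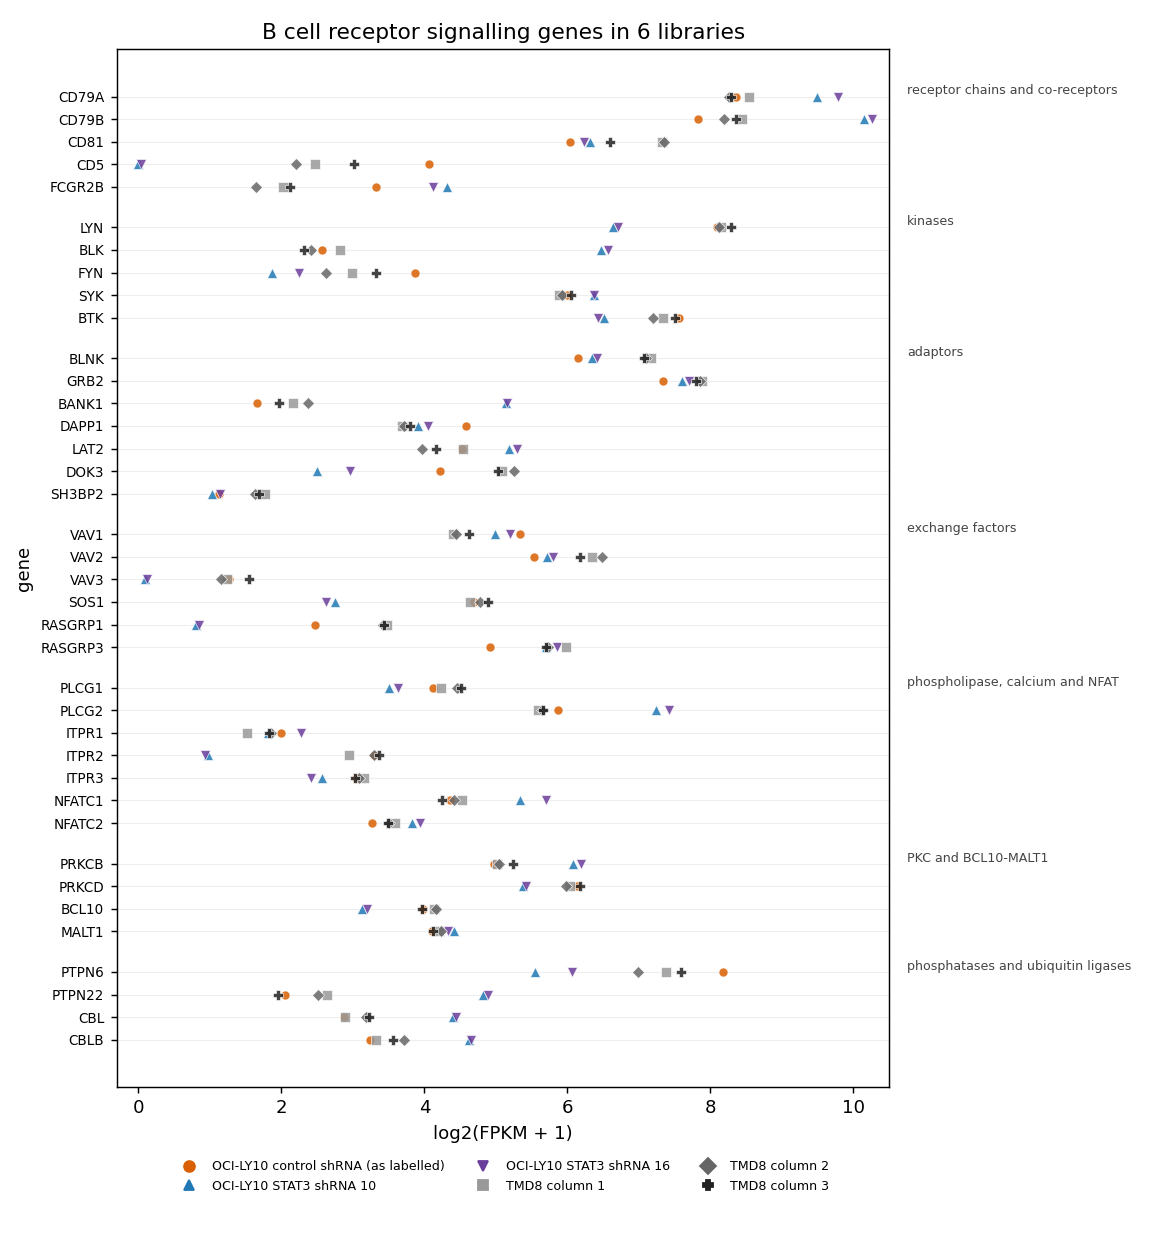
Level of each of the 38 genes in all 6 libraries as log2(FPKM + 1), grouped by role; each symbol is 1 library, and the tables of the 2 lines were deposited separately. As examples, for CD79B, BLK, BANK1 and PTPN22 the 2 OCI-LY10 STAT3 shRNA libraries sit to the right of the other 4 libraries, and for LYN, SOS1, ITPR2 and CD5 to the left. They also sit to the right for SYK and MALT1, which did not pass the test. The share of all genes that separate in this way was not counted.

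Among the receptor-proximal kinases, BLK was higher and LYN, FYN and BTK were lower with the STAT3 shRNAs. BLK, a Src-family kinase largely restricted to B cells, stood at 4.94 FPKM in the library labelled control, 87.9 with shRNA 10 and 93.5 with shRNA 16, against 6.08, 4.35 and 3.97 in the TMD8 columns. Its log2 change of 3.95 (SE 0.10, adjusted p = 0.00717) was the largest rise among the tested genes of this set. LYN, the main Src-family kinase of B cells, which both starts and restrains the signal, stood at 271 FPKM in the library labelled control, 98.1 with shRNA 10 and 103.8 with shRNA 16. In TMD8 it stood at 283, 277 and 311 FPKM, so the STAT3 shRNA libraries of OCI-LY10 were the lowest of the 6 and did not overlap the rest. The log2 change of LYN was −1.42 (SE 0.09, adjusted p = 0.0136). FYN, another kinase of the family, stood at 13.7 FPKM against 2.65 and 3.74 with shRNAs 10 and 16, with 6.96, 5.14 and 9.04 in TMD8, and its log2 change was −1.82 (SE 0.22, adjusted p = 0.0265).

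Further down, BTK, the kinase that activates phospholipase C gamma 2, stood at 188 FPKM in the library labelled control and 90.0 and 84.7 with shRNAs 10 and 16, against 160, 146 and 181 in TMD8. The log2 change of BTK was −1.10 (SE 0.09, adjusted p = 0.0177). SYK, which docks on the phosphorylated CD79 chains, did not pass (62.8 FPKM against 81.7 ± 0.359, SD, n = 2; adjusted p = 0.0628), and its values over the 6 libraries ranged only from 57.9 to 81.9 FPKM.

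Of the 7 adaptors, BANK1 and LAT2 were higher, DOK3 was lower and 4 did not pass. BANK1, a B-cell scaffold that binds LYN, stood at 2.15 FPKM in the library labelled control and 34.3 and 34.5 with shRNAs 10 and 16, against 3.47, 4.17 and 2.91 in TMD8. With a log2 change of 3.49 (SE 0.09, adjusted p = 0.00726), it followed BLK in size. LAT2, a membrane adaptor, stood at 22.1 FPKM against 35.2 and 38.4 (log2 change 0.71, SE 0.11, adjusted p = 0.0352), and at 22.3, 14.7 and 17.0 in TMD8. DOK3, an adaptor that recruits inhibitors of the signal, stood at 17.6 FPKM against 4.66 and 6.75, with 33.0, 37.0 and 31.7 in TMD8. The log2 change of DOK3 was −1.49 (SE 0.26, adjusted p = 0.0434), and it missed the threshold at a pseudocount of 0.1 FPKM (limma adjusted p = 0.0524). BLNK, which links SYK to BTK and the lipase, and GRB2, a general adaptor of Ras signalling, did not pass and were expressed at 70.0 to 142 and 160.1 to 234 FPKM over the 6 libraries. DAPP1, a phosphoinositide-binding adaptor, missed the threshold (22.9 FPKM against 14.8 ± 1.06, SD, n = 2; adjusted p = 0.0512) and passed it under 5 of 9 alternative settings. SH3BP2, a further adaptor, stood at 1.05 to 2.42 FPKM over the 6 libraries and did not pass.

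Of the exchange factors, which load small GTPases with GTP, SOS1 and RASGRP1 fell and RASGRP3 rose. SOS1, which GRB2 brings to Ras, stood at 24.8 FPKM in the library labelled control and 5.72 and 5.17 with shRNAs 10 and 16, against 23.8, 26.4 and 28.6 in TMD8 (log2 change −2.00, SE 0.12, adjusted p = 0.0121). Here the library labelled control lay inside the TMD8 range, and the STAT3 shRNA libraries were the lowest of the 6. RASGRP1, a Ras activator driven by diacylglycerol and best known from T cells, stood at 4.51 FPKM against 0.752 and 0.802, with 10.1, 9.69 and 9.86 in TMD8 (log2 change −1.63, SE 0.09, adjusted p = 0.0106). RASGRP3, the family member prominent in B cells, stood at 29.1 FPKM against 51.2 and 57.0 (log2 change 0.87, SE 0.12, adjusted p = 0.0298), while TMD8 columns had 61.9, 52.0 and 51.2. For RASGRP3 the library labelled control was thus the lowest of the 6. VAV1 and VAV2, exchange factors of Rac, did not pass and stood at 20.1 to 39.5 and 45.2 to 88.0 FPKM over the 6 libraries. VAV3 stood at 1.42 FPKM in the library labelled control, 0.0619 and 0.0889 with the shRNAs and 1.36, 1.22 and 1.93 in TMD8.

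In the calcium branch, the lipase gene PLCG2 and both NFAT genes were higher and ITPR2 was lower. PLCG2 encodes phospholipase C gamma 2, the isoform that B cells rely on, and stood at 57.6 FPKM in the library labelled control and 150.4 and 170 with shRNAs 10 and 16, against 47.0, 49.2 and 49.7 in TMD8. The log2 change was 1.46 (SE 0.13, adjusted p = 0.0177). PLCG1, the isoform typical of T cells, did not pass (16.4 FPKM against 10.9 ± 0.698, SD, n = 2; adjusted p = 0.0578). ITPR2, which encodes a calcium channel of the endoplasmic reticulum, stood at 8.77 FPKM against 0.967 and 0.912, with 6.72, 8.82 and 9.30 in TMD8 (log2 change −2.33, SE 0.09, adjusted p = 0.00831). ITPR1 and ITPR3, genes of related channels, did not pass, at 1.87 to 3.82 and 4.35 to 7.87 FPKM over the 6 libraries. NFATC1, a calcium-dependent transcription factor, stood at 19.5 FPKM against 39.4 and 50.8 (log2 change 1.16, SE 0.21, adjusted p = 0.0455), and at 22.0, 20.4 and 18.0 in TMD8. NFATC2 stood at 8.58 FPKM against 13.2 and 14.4 (log2 change 0.63, SE 0.11, adjusted p = 0.0458), and at 11.0, 10.3 and 10.2 in TMD8. Both NFAT calls were lost with quantile normalization (adjusted p = 0.0590 and 0.0506), and that of NFATC2 also with median-of-ratios scaling (0.0529).

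Protein kinase C genes moved in opposite directions. PRKCB, whose product relays the lipase signal to NF-kB, stood at 30.5 FPKM in the library labelled control. It stood at 66.9 and 72.0 with shRNAs 10 and 16, against 31.3, 31.9 and 36.6 in TMD8. Its log2 change was 1.16 (SE 0.10, limma adjusted p = 0.0179), and the promoter window printed above for PRKCB holds the octamer. PRKCD, which encodes a delta isoform that limits B cell expansion, stood at 69.2 FPKM against 40.6 and 41.9, with 64.8, 62.3 and 71.3 in TMD8 (log2 change −0.73, SE 0.09, adjusted p = 0.0256). For both genes the library labelled control lay inside the TMD8 range or within 1 FPKM of it. BCL10, a scaffold between the kinase and MALT1, stood at 14.8 FPKM against 7.76 and 8.20, with 16.6, 16.9 and 14.6 in TMD8 (log2 change −0.82, SE 0.11, adjusted p = 0.0281). MALT1, the protease of that complex, did not pass, and its 6 values lay between 16.2 and 20.4 FPKM.

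PTPN22, CBL and CBLB, genes of a phosphatase and of ubiquitin ligases, were higher with the STAT3 shRNAs, and the phosphatase gene PTPN6 was lower, a call lost when low genes were kept (adjusted p = 0.0769). That is 4 of 4 such genes, where 67.6% of the 37 tested genes of the set and 37.7% of all tested genes passed. PTPN6, a phosphatase recruited by inhibitory receptors, stood at 287 FPKM in the library labelled control and 45.7 and 66.2 with shRNAs 10 and 16, against 165, 125 and 191 in TMD8. Its log2 change was −2.36 (SE 0.29, limma adjusted p = 0.0266), and the promoter window printed above for PTPN6 holds the EBF1-type palindrome. PTPN22, a phosphatase that restrains Src-family kinases, stood at 3.14 FPKM against 27.1 and 28.6, with 5.24, 4.68 and 2.86 in TMD8 (log2 change 2.80, SE 0.10, adjusted p = 0.00766). The ubiquitin ligases CBL and CBLB, which mark activated kinases for degradation, both rose. CBL stood at 6.33 FPKM against 20.1 and 20.7, with 6.38, 8.04 and 8.35 in TMD8 (log2 change 1.55, SE 0.10, adjusted p = 0.0128). CBLB stood at 8.48 FPKM against 23.7 and 24.0, with 9.02, 12.1 and 10.7 in TMD8 (log2 change 1.39, SE 0.09, adjusted p = 0.0137).

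The balance between related genes was described as each gene's share of the summed FPKM of its family. LYN made up 93.6% of the summed FPKM of LYN, BLK and FYN in the library labelled control and 95.6% to 96.7% in the TMD8 columns. In the STAT3 shRNA libraries of OCI-LY10 LYN made up 52.0% and 51.6%, and BLK 46.6% and 46.5%, so LYN and BLK were nearly level there. PRKCB made up 62.2% and 63.2% of the summed FPKM of PRKCB and PRKCD with shRNAs 10 and 16, 30.6% in the library labelled control and 32.6% to 33.9% in TMD8. PLCG1 made up 6.47% and 6.27% of the phospholipase C gamma sum with the shRNAs, 22.1% in the library labelled control and 27.5% to 30.5% in TMD8. RASGRP1 made up 1.45% and 1.39% of its pair with RASGRP3, against 13.4% in the library labelled control and 14.0% to 16.2% in TMD8. ITPR2 made up 11.5% and 10.1% of the 3 receptor genes, against 46.2% and 40.8% to 48.9%. The shares of CBL and CBLB differed little, CBL making up 39.9% to 46.3% of the pair in all 6 libraries. NFATC2 made up 30.6% of its pair with NFATC1 in the library labelled control, 25.1% and 22.0% with the shRNAs and 33.4% to 36.2% in TMD8. VAV1 made up 45.8% of its family in the library labelled control, 37.3% and 39.5% with the shRNAs and 18.9% to 24.4% in TMD8. These shares are descriptions with no test.

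**Figure D4:**
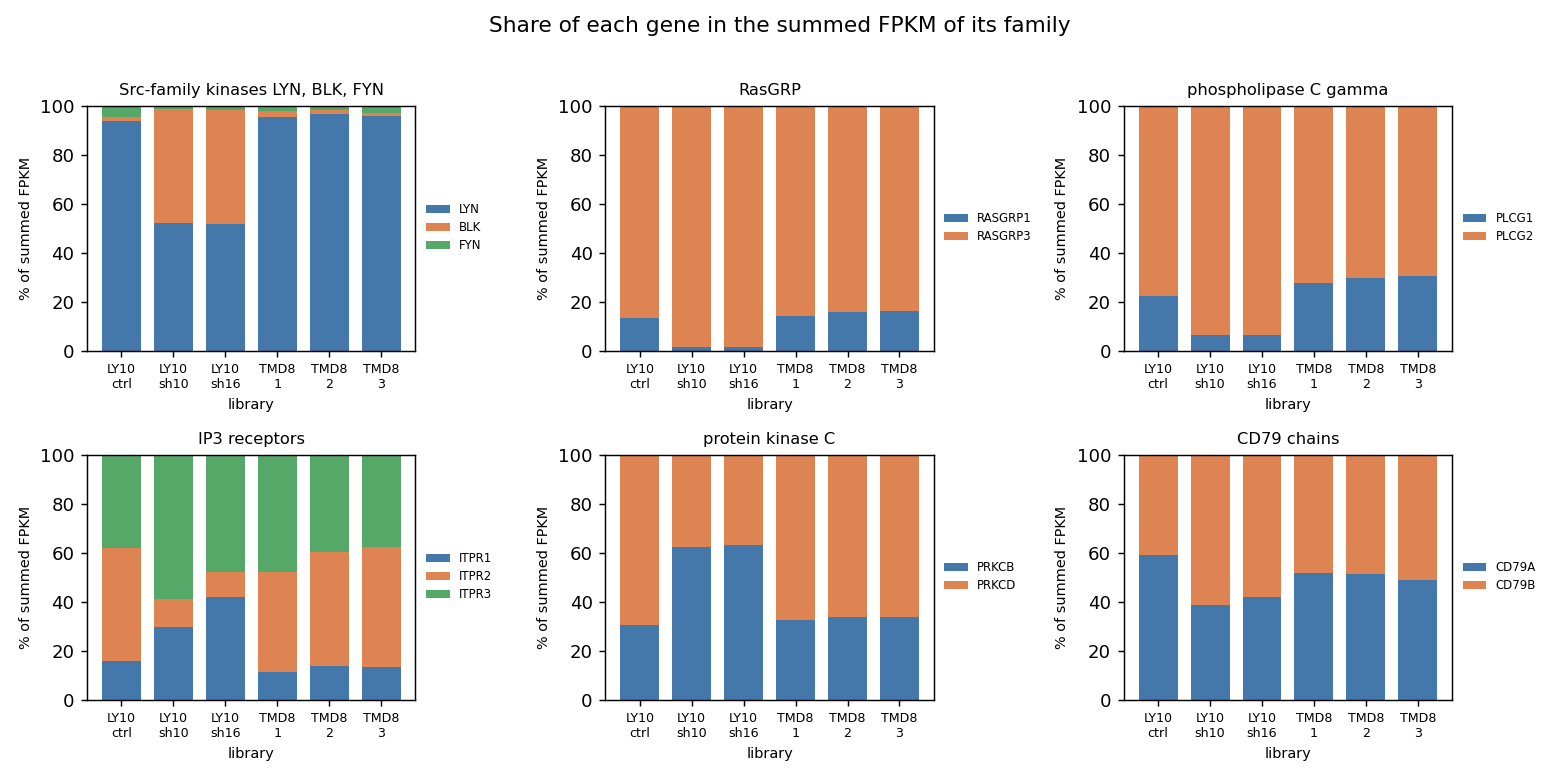
Share of each gene in the summed FPKM of its family, in percent, for the 3 OCI-LY10 libraries and the 3 TMD8 columns; each bar is 1 library and reaches 100%. LYN fills 93.6% to 96.7% of the Src-family bar in the library labelled control and the TMD8 columns, and about as much as BLK in the STAT3 shRNA libraries.

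Other genes of the pathway also went both ways. Of 58 further genes, from co-receptors to the kinases and factors at the end of the cascade, 56 were tested, 15 were higher (26.8%) and 14 lower (25.0%) in OCI-LY10, against 20.3% and 17.4% of all tested genes, and 27 did not pass. With low genes kept, 3 were higher and 7 lower. Their median log2 change was −0.01. INPP5D, an inhibitory lipid phosphatase, stood at 24.1 FPKM in the library labelled control and 101.6 and 100.2 with shRNAs 10 and 16, and changed by 2.02 on the log2 scale (adjusted p = 0.00864). The surface gene CD38 and the factor gene NFATC3 were also higher, with log2 changes of 1.82 and 1.22. In the other direction PIK3R5, a regulatory subunit of a phosphoinositide kinase, stood at 8.06 FPKM against 0.169 and 0.157, and TMD8 columns had 5.41, 5.73 and 5.56. FOS, an early-response transcription factor, stood at 7.01 FPKM against 0.362 and 0.231, and at 0.0824, 0.0277 and 0.0513 in TMD8, so the library labelled control alone was high. PIK3R5 and FOS are among 4 genes of this list that passed the filter only through one group, here the library labelled control, so their calls follow partly from the filter. RAC3, a small GTPase, was also lower, with a log2 change of −2.14.

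Differences between the STAT3 shRNAs in OCI-LY10 were small. The median log2 difference, shRNA 16 minus shRNA 10, was 0.08, against 0.00 over all tested genes. On the log2(FPKM + 1) scale, 0 of the 38 genes differed at least 1.5-fold between shRNA 16 and shRNA 10, against 3.62% of all 11162 genes, and there was no test with 1 library each. The median absolute difference was 0.10. PTPN6 differed most, by 0.53, followed by ITPR1 at 0.46, DOK3 at 0.45 and FYN at 0.38, all higher with shRNA 16. Of the 37 tested genes, 13 exceeded the library labelled control by 1.5-fold or more with each shRNA and 11 were under it by as much. The shares over all tested genes were 20.1% and 17.2%. VAV3, which was not tested and is not in these counts, had log2 ratios to that library of −1.19 and −1.15 with shRNAs 10 and 16. These ratios share the control library.

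Variation among the TMD8 columns was close to that of other genes. All 38 genes had a mean of at least 1 FPKM there, and for 5 the highest column was at least 1.5-fold over the lowest on the FPKM + 1 scale, against 11.5% of 10888 genes. STAT3 differed 5.36-fold in FPKM between its highest and lowest column. CD5 varied most among the 38, with a ratio of 1.75, from 3.60 FPKM in column 2 to 7.05 in column 3. CD81 followed at 1.70, with 159 and 163 FPKM in columns 1 and 2 and 95.2 in column 3. The others were FYN at 1.63, PTPN22 at 1.62 and PTPN6 at 1.52. The median ratio was 1.21, and 1.21 over all genes. Column 1, where STAT3 was highest, held the highest value for 13 of the 38 genes and the lowest for 11. Column 2 held the highest for 8 and the lowest for 13, and column 3 the highest for 17 and the lowest for 14. The shares over all genes were not counted. Because no column is tied to a shRNA, these values give no comparison of STAT3 shRNA with control in TMD8.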

How the data were processed

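RNA-seq was measured in 3 libraries of OCI-LY10 and 3 of TMD8. The authors deposited FPKM values, 1 per gene and library, in 1 table per line. TopHat, Bowtie2 and hg19 are named without roles or versions, per the submitters' processing notes; which tool gave the FPKM, with what annotation, library scaling or strand setting, was not given in the sources used here, so overlapping genes cannot be told apart. OCI-LY10 columns were matched to samples by name. The TMD8 table has no header, so its columns were reported by position, with no test.

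The 38 genes, the gene lists and the settings were chosen with earlier results of these data known. Genes averaging 1 FPKM or more in OCI-LY10 (11162) were tested with limma 3.58.1 in R 4.3.3 on log2(FPKM + 1) (mean-variance trend, two-sided, Benjamini-Hochberg, threshold 0.05), 2 STAT3 shRNA libraries against 1 control, with 1 residual degree of freedom. Fold changes on this scale understate the change of low genes. Per-library values are printed for each gene that passed, and for any whose highest value over the 6 columns was at least 5 FPKM and 4 times its lowest. Of the other pathway genes, up to 4 in each direction with the largest changes among the calls are named, except some that are not reported here. The method was tested on simulated data that gave the control and the shRNA libraries the same spread. Such data cannot show how the test behaves when a single control differs for other reasons. Relative depth, from ratios of values under 0.1 FPKM, was 1.52 for the library labelled control and 0.73 for shRNA 16 against shRNA 10. The number of reads is unknown, and counting intervals were left out. Alternatives were other pseudocounts, filters and scalings, the fit without the trend, and each shRNA library left out.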

Additional observations from a re-analysis of the deposited data

How the results depend on the processing

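No setting among the 9 tried turned the direction of a gene that passed. Of the 25 genes that passed, 15 passed in every setting that tested them and 10 were lost in at least 1. Without the filter on low values, which raised the genes tested from 11162 to 18098, 8 of the 38 were higher in place of 14 and 8 lower, VAV3 newly among them, in place of 11, other pathway genes numbered 3 higher and 7 lower in place of 15 and 14, and over all genes 1299 were higher in place of 2263 and 2101 lower in place of 1943; the cause was not tested. The genes lost there were CD79A (adjusted p = 0.0828), FCGR2B (0.0810), FYN (0.0744), LAT2 (0.0685), DOK3 (0.107), RASGRP3 (0.0664), NFATC1 (0.108), NFATC2 (0.0781), BCL10 (0.0527) and PTPN6 (0.0769). Of the 12 that did not pass, 4 passed in at least 1 setting: SYK, DAPP1, PLCG1 and ITPR3. With a pseudocount of 0.1 FPKM, 1 gene, ITPR1, differed at least 1.5-fold between the shRNAs. Leaving out either STAT3 shRNA library gave 13 to 14 of the 37 tested genes at least 1.5-fold higher and 12 to 13 lower, with no test. No paired analysis was possible because the control is 1 library.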
